A study of Mus musculus with 2 samples.

Results

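4T1 is a murine breast cancer line with epithelial features, and astragalin (AS) is a plant flavonoid. The transcriptome was read in 1 library of 4T1 cells exposed to 20 μM AS for 24 h and in 1 library of 4T1 cells that received the vehicle. Both libraries came from cells labelled as wild type, and they differed by AS alone as far as the labels tell. The genes described here are the hypoxia-inducible factor genes Hif1a and Epas1 with 8 genes that are known to respond to hypoxia and do not encode glycolytic enzymes, namely Egln1, Egln3, P4ha1, Ankrd37, Bnip3, Ndrg1, Adm and Car9. They were chosen by name from a fixed list of 10 genes, which was drawn up with earlier results of these data known. Of these, 9 were found among the 14197 genes of the deposited table. Epas1, the gene of HIF-2 alpha, is not analysed here.

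In cells with enough oxygen, the EGLN prolyl hydroxylases modify the HIF alpha proteins, the VHL ubiquitin ligase binds the modified protein, and the proteasome removes it. In low oxygen the alpha subunit persists, pairs with ARNT and binds hypoxia response elements of its target genes, among them genes of glycolysis, blood vessel growth, acid handling, mitophagy and collagen modification. Egln1 and Egln3 are themselves targets, which closes a feedback loop. HIF-1 alpha is regulated largely at the level of the protein, which these libraries did not measure.

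To show the start regions of these genes beside their values, the RefSeq sequences from 250 bases before to 50 bases after each transcription start (GRCm38.p6) were searched on both strands for the 5-base cores of the hypoxia response element, ACGTG and GCGTG. Overlapping matches, such as CACGTG, which is also an E-box, were counted as 1 site. A start region was found for 8 of the 10 genes, and for Ndrg1 and Epas1 no sequence is given. The RefSeq starts of Ankrd37 and Hif1a lie within the GENCODE M21 spans of these genes, far from the outer end of the coordinates given below. Starts at that outer end were not searched. The regions of Ankrd37 and Bnip3 are printed as those of the genes with the lowest ratios of AS to vehicle, and that of Hif1a as that of the gene with the highest. Each is written 5′ to 3′ on the strand of the gene, capitals mark the cores, positions count back from -1 at the base before the RefSeq start, and bases that GENCODE M21 places in an exon are left out.
Ankrd37, chr8:45999868-46000100, minus strand, positions -250 to -18: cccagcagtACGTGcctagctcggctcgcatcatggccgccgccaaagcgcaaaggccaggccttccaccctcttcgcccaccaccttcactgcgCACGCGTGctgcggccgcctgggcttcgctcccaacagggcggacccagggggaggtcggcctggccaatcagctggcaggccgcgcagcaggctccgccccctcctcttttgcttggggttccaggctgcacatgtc
Bnip3, chr7:138909520-138909756, minus strand, positions -250 to -14: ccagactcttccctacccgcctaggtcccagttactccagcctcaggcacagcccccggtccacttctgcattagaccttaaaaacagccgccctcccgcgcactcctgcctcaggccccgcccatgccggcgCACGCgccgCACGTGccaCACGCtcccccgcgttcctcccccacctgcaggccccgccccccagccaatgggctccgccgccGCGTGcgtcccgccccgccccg
Hif1a, chr12:73907617-73907866, plus strand, positions -250 to -1: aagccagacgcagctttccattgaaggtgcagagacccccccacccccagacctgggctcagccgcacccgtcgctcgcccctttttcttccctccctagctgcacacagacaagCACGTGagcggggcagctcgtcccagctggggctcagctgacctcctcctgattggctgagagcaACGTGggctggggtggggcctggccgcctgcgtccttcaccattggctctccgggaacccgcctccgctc

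Ankrd37 held 3 separate sites before its start, at positions -241, -155 and -6, of which the last lies in a GENCODE exon. Bnip3 held 4 sites, and 3 of them began close together, at positions -117, -108 and -99. Hif1a held 2 sites, at -135 and -70. For the other genes, 30 bases around a site are shown, since they let the bases next to the core be compared. The Car9 site, at position -18, and its window lie in a GENCODE exon of Car9.
Egln1, chr8:124949364-124949393, minus strand: ggcccggcccgccGCGTGcgcgcggccccc
P4ha1, chr10:59323157-59323186, plus strand: gcactgcgtcctcGCGTGggccagcctagg
Adm, chr7:110627590-110627619, plus strand: gggcaaatctgacCACGCccaccgtccgcc
Egln3, chr12:54204087-54204116, minus strand: atgtgcatctcagACGTGagatccaggttt
Car9, chr4:43506995-43507024, plus strand: cctatttccgatgCACGTacagcccgtcca

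All 8 start regions held at least 1 site and 6 held at least 2. These cores are short and common. At least 1 site was present in 43.8% of all 32851 RefSeq start regions of the same length and at least 2 in 17.3%, and among the 12391 start regions of genes in the table the shares were 61.9% and 30%. A match is a description of these letters and was not linked to binding by any measurement here. Car9 and Egln3, with 1 site each, and Hif1a, with 2, had ratios of AS to vehicle near or above 1. Egln1 and Adm, also with 2 sites each, had ratios of 0.738 and 0.818. P4ha1 and Ankrd37, with 3 sites each, had ratios of 0.736 and 0.452, and Bnip3, with 4, had a ratio of 0.545. Whether the number of sites goes with the ratio was not tested.

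**Figure D1:**
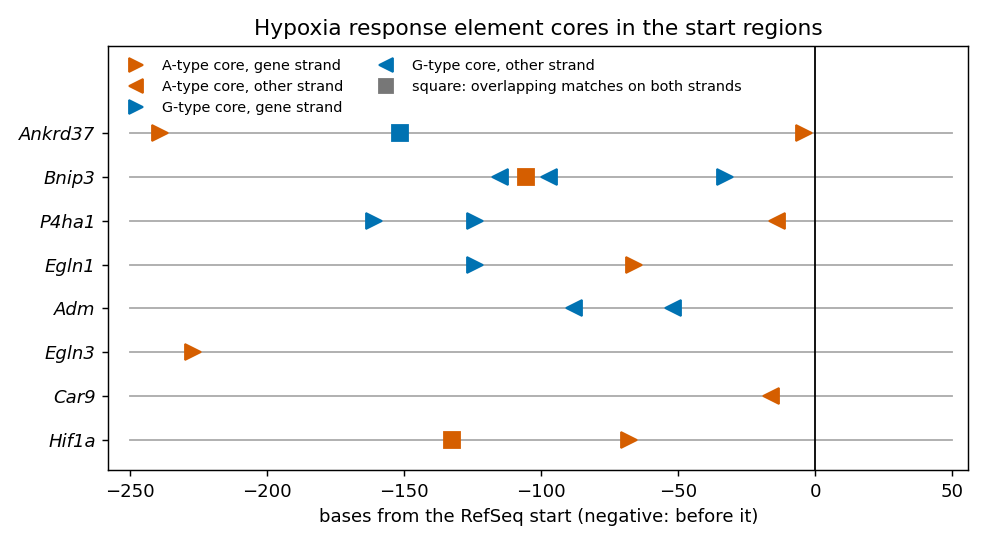
Matches to the cores ACGTG (orange) and GCGTG (blue) from 250 bases before to 50 bases after the RefSeq start of 8 genes, ordered from the lowest ratio of AS to vehicle at the top to the highest at the bottom; arrows give the strand and squares are overlapping matches on both strands. Bnip3 holds 4 sites and Car9 and Egln3 hold 1 each, and none lies after the start.

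Levels are given as RPKM, a read count divided by exon length and by library size, which allows genes of different length to be compared. Whole reads behind the RPKM were recovered for all 14197 genes, with totals of 44820059 for AS and 50723561 for the vehicle. Each fold change is a log2 value, AS over vehicle, computed with 0.1 RPKM added to each library, and changes of low genes are understated by it. Intervals are 95% Clopper-Pearson intervals of the plain ratio of reads, for counting error only. With 1 library per condition no spread between dishes could be measured, so no test was made and every difference is between these libraries. In bulk libraries fewer cells with a transcript and less of it in each cell cannot be told apart.

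Among the markers of mammary epithelium, Krt18 had 707 RPKM with AS and 902 with the vehicle, and Epcam 335 and 357 RPKM. All 5 keratin genes examined were lower with AS, with log2 fold changes from -0.96 (Krt14) to -0.35 (Krt18), whereas Epcam was at -0.09 and Cdh1 at 0.17. Of 12 markers of leukocytes, endothelium, fibroblasts and erythroid cells, 9 are not analysed here. The pan-leukocyte gene Ptprc was at 0.116 and 0.114 RPKM, Pdgfra at 4.24 and 4.16 RPKM, and Cd68, a lysosomal gene used as a macrophage marker, at 24.0 and 28.1 RPKM. The part of these differences in the results was not tested.

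The hypoxia genes were lower with AS in most cases while Hif1a was higher. Of the 9 genes, 6 had a log2 fold change below 0, where 39.1% of all genes did, and 3 were above 0, where 60.9% of all genes were. With TMM scaling of the reads, 7 of the 9 genes and 50.4% of all genes were below 0, since this scaling lowers every value by 0.07 and turns that of Egln3. Only Ankrd37 was lower by at least 2-fold (0.31% of all genes), and Ankrd37 and Bnip3 were lower by at least 1.5-fold (2.01%). No gene of the 9 was higher by at least 2-fold (0.662% of all genes) or 1.5-fold (3.56%). Of all genes, 286 were lower and 505 higher at 1.5-fold, against 407 and 380 with TMM scaling. The counting interval lay below 0 for 5 genes, as for 19.8% of all genes, and above 0 for Hif1a, as for 37.6% of all genes. The median log2 fold change of the 9 genes was -0.33, and that of all genes was 0.07. Since the genes were chosen with earlier results of these data known, these values describe the list and are no test of it.

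**Figure D2:**
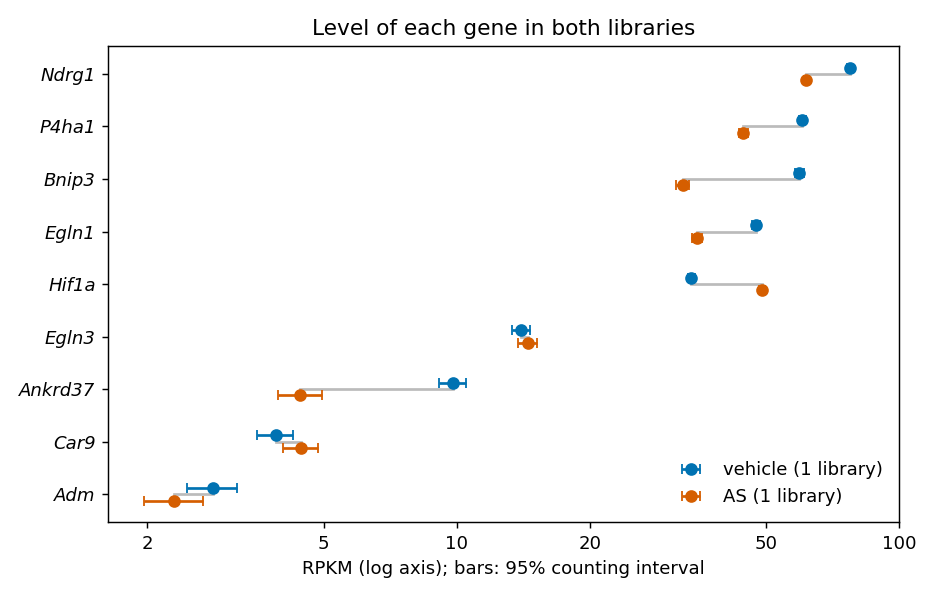
RPKM of 9 genes in the vehicle library (blue) and the AS library (orange) on a log axis, with 95% counting intervals; genes are ordered by their level with the vehicle. Hif1a moved from 33.9 with the vehicle to 48.9 RPKM with AS, and Ankrd37 from 9.79 to 4.43 RPKM.

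With the vehicle, Ndrg1 had the highest level of the 9 genes (77.3 RPKM) and Adm the lowest (2.81 RPKM). Next to Ndrg1 stood P4ha1 with 60.4 RPKM and Bnip3 with 59.5 RPKM, and the counting intervals of this pair overlapped. Egln1 (47.4 RPKM), Hif1a (33.9 RPKM), Egln3 (14.0 RPKM), Ankrd37 (9.79 RPKM) and Car9 (3.89 RPKM) followed in this order, each apart from its neighbours by more than counting error. With AS, Ndrg1 was still first with 61.7 RPKM, but Hif1a stood next with 48.9 RPKM, followed by P4ha1 (44.5 RPKM), Egln1 (35.0 RPKM) and Bnip3 (32.5 RPKM). Car9 and Ankrd37 had 4.44 and 4.43 RPKM with AS, a difference within counting error.

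Hif1a encodes the oxygen-regulated alpha subunit of HIF-1 (GRCm38 chr12:73901375-73947530, plus strand). It had 48.9 RPKM with AS, from 12959 reads, and 33.9 RPKM with the vehicle, from 10155 reads. The AS library was thus 44.4% higher, with a log2 fold change of 0.53 and a counting interval from 0.49 to 0.57. By this value Hif1a was number 664 of 14197 genes from the top. The antisense gene Gm15283 shares 330 of the 5896 exon bases of Hif1a, and it had 23.0 RPKM with AS and 14.7 RPKM with the vehicle, for a log2 fold change of 0.64. The strand setting of the authors' counting is not given in the sources used here. Reads on the exon bases that such a pair shares therefore cannot be told apart, and their number was not measured. Arnt, the gene of the constant beta subunit, had 11.6 RPKM with AS and 11.3 RPKM with the vehicle. The level of Hif1a was 4.22 times that of Arnt with AS and 3.003 times with the vehicle, and the log2 ratio of these ratios was 0.49 (exact conditional interval from 0.42 to 0.56).

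Egln1 encodes PHD2, the main prolyl hydroxylase that marks HIF alpha for removal (chr8:124908587-124949324, minus strand). Its level was 35.0 RPKM with AS, from 5648 reads, and 47.4 RPKM with the vehicle, from 8655 reads. This is 26.2% lower with AS, a log2 fold change of -0.44 with a counting interval from -0.49 to -0.39. Egln3 encodes PHD3, the most strongly hypoxia-induced hydroxylase of the family in many cells (chr12:54178981-54203860). It had 14.5 and 14.0 RPKM, from 1729 and 1890 reads, and its log2 fold change of 0.05 had an interval from -0.04 to 0.14. The direction of Egln3 cannot be given, since its value turned to -0.02 with TMM scaling of the reads. Egln2, the gene of PHD1, had 9.69 RPKM with AS and 10.7 RPKM with the vehicle. The sum of the 3 hydroxylase genes was 59.1 RPKM with AS and 72.01 RPKM with the vehicle. Egln1 made up 59.2% of that sum with AS and 65.8% with the vehicle, and Egln3 made up 24.5% and 19.4%. The log2 fold change of Egln1 differed from that of Egln3 by -0.49, with an exact conditional interval from -0.59 to -0.38 for counting error.

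The rest of the HIF machinery was read from a list of HIF subunits, hydroxylases, the VHL ligase, coactivators and feedback genes. Of 17 genes listed, 14 were found, and 11 of these were other than Hif1a, Egln1 and Egln3. The 11 genes had a median log2 fold change of -0.08, from -0.29 to 0.37, and 7 of them lay below the median of all genes. None of the 14 passed 1.5-fold, which 2.01% of all genes did on the lower and 3.56% on the higher side, so a count of 0 is near the background. Vhl, which recognizes hydroxylated HIF alpha, was at 0.37, with 359 reads in the AS library. Its partners in the ligase were at -0.29 (Rbx1), -0.26 (Elob), -0.08 (Eloc) and -0.08 (Cul2). Hif1an, the asparaginyl hydroxylase that blocks coactivator binding, was at 0.16. The coactivator genes Ep300 and Crebbp were at 0.22 and 0.18, and Cited2, which competes with HIF-1 alpha for these coactivators and is induced by HIF-1, was at -0.25. All of these were smaller in size than the value of Hif1a.

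**Figure D3:**
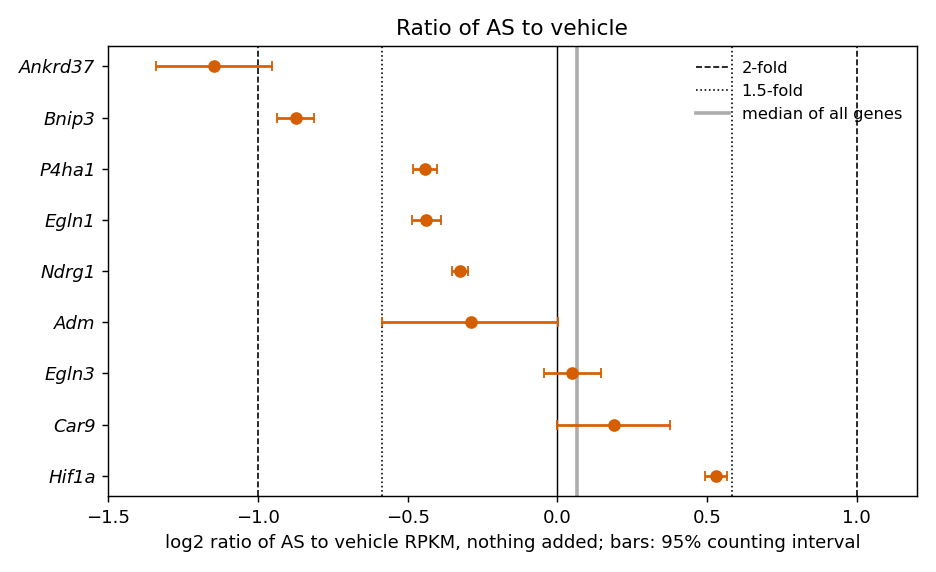
Log2 ratio of AS to vehicle for 9 genes, with nothing added to the RPKM and with 95% Clopper-Pearson intervals for counting error; dashed and dotted lines mark 2-fold and 1.5-fold, and the grey line the median of all genes. Ankrd37 and Bnip3 lie beyond 1.5-fold on the lower side, and Hif1a is the highest of the genes.

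Ankrd37 had the lowest ratio of AS to vehicle among the 9 genes. It encodes a small ankyrin repeat protein and is a HIF-1 target of little known function (chr8:45996902-46005707, minus strand). Its level was 4.43 RPKM with AS, from 306 reads, and 9.79 RPKM with the vehicle, from 766 reads. The AS library was lower by 54.8%, with a log2 fold change of -1.13 and a counting interval from -1.34 to -0.95, so counting error alone reaches across the 2-fold line. Ankrd37 was number 30 of 14197 genes from the bottom. With 1 RPKM added in place of 0.1, its log2 fold change was -0.99 and no gene of the 9 passed 2-fold. Lrp2bp on the opposite strand shares 349 of its 1539 exon bases, and the level of Lrp2bp was 0.390 and 0.553 RPKM, far under that of Ankrd37. Ufsp2, also on the opposite strand, shares 57 of these bases and stood above Ankrd37, at 10.8 RPKM with AS and 14.2 RPKM with the vehicle.

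Bnip3 encodes a mitochondrial outer membrane protein that recruits the autophagy machinery and can promote cell death (chr7:138890836-138909519, minus strand). It had 32.5 RPKM with AS, from 3301 reads, and 59.5 RPKM with the vehicle, from 6849 reads. This is 45.5% lower with AS, a log2 fold change of -0.87 with an interval from -0.93 to -0.81, and number 73 of all genes from the bottom. The antisense gene Gm45507 shares 504 of its 2265 exon bases. That gene had 332 AS reads, 768 vehicle reads and a log2 fold change of -1.03. The number of reads on the bases that it shares with Bnip3 was not measured. The paralogue Bnip3l, the gene of the mitophagy receptor NIX, had 47.8 RPKM with AS and 59.7 RPKM with the vehicle, for a log2 fold change of -0.32. Both genes stood at nearly the same level with the vehicle, where the ratio of Bnip3 to Bnip3l was 0.997, and the ratio was 0.679 with AS. The difference of their log2 fold changes was -0.55, with an exact conditional interval from -0.63 to -0.48. Fam162a, another hypoxia-induced mitochondrial gene linked to cell death, was at -0.57 with the deposited scaling and at -0.63, beyond 1.5-fold, with TMM scaling.

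P4ha1 encodes the main catalytic subunit of collagen prolyl 4-hydroxylase, which stabilizes the collagen triple helix (chr10:59323296-59373304, plus strand). It had 44.5 RPKM with AS, from 8213 reads, and 60.4 RPKM with the vehicle, from 12626 reads. This is 26.4% lower with AS, a log2 fold change of -0.44 with an interval from -0.48 to -0.40. Its paralogue P4ha2 had 4.99 RPKM with AS and 7.18 RPKM with the vehicle, for a log2 fold change of -0.52. The difference between this pair was 0.08, with an interval from -0.02 to 0.19, so P4ha1 and P4ha2 were not set apart by counting error alone. P4ha1 held 89.2% of the summed RPKM of the 3 alpha subunit genes with AS and 88.7% with the vehicle. P4ha3 was low, at 0.369 and 0.527 RPKM. Of the other collagen-modifying genes, the lysyl hydroxylase gene Plod2 was at -0.41 and Plod1 at -0.11. Lox and Loxl2, which encode lysyl oxidases that cross-link collagen, were low, with 84 and 65 reads in the AS library. Lox had a log2 fold change of 0.50 with a counting interval from 0.17 to 1.17, opposite in direction to the other collagen-modifying genes, and Loxl2 was at -0.15 with an interval from -0.70 to 0.27.

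**Figure D4:**
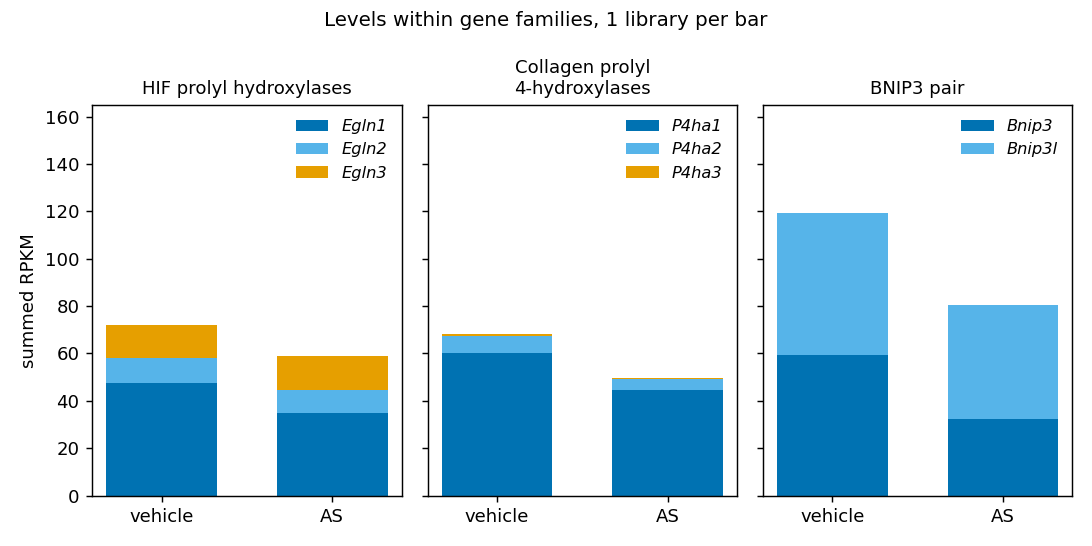
Summed RPKM of the HIF prolyl hydroxylase genes, the collagen prolyl 4-hydroxylase alpha subunit genes and the pair of Bnip3 and Bnip3l in each library, with the part of each gene in colour. The sum was lower with AS in all 3 panels, and the share of Bnip3 in its pair was 40.4% with AS and 49.9% with the vehicle.

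Ndrg1 is a stress-responsive gene known as a suppressor of metastasis in several cancers (chr15:66929318-66969640, minus strand). It had 61.7 RPKM with AS, from 18272 reads, and 77.3 RPKM with the vehicle, from 25911 reads. This is 20.2% lower with AS, and the log2 fold change was -0.33 with an interval from -0.35 to -0.30. Its antisense gene Gm17035 shares 419 of 6596 exon bases and was at -0.34. Gm17035 stood above Ndrg1, at 95.7 RPKM with AS and 121 RPKM with the vehicle. Reads on the shared bases cannot be told apart, so its value may not be separate from that of Ndrg1. Of the paralogues of Ndrg1, Ndrg3 was at 0.41, Ndrg4 at -0.03 and Ndrg2 at -0.45. Ndrg1 held 92.5% of the summed RPKM of the 4 genes with AS and 94.4% with the vehicle.

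Adm and Car9 were the lowest of the 9 genes with the vehicle, and counting error covered their differences. Adm encodes adrenomedullin, a vasodilator peptide (chr7:110627661-110629820). It had 2.30 RPKM with AS, from 167 reads, and 2.81 RPKM with the vehicle, from 231 reads. The log2 fold change was -0.28, with an interval of the ratio from -0.59 to 0.0038. Car9 encodes carbonic anhydrase IX, a membrane enzyme that handles acid outside hypoxic tumour cells (chr4:43506966-43513729). It had 4.44 RPKM with AS, from 459 reads, and 3.89 RPKM with the vehicle, from 456 reads, a log2 fold change of 0.18 with an interval from -0.0023 to 0.38. Differences in either gene were therefore not detectable at this depth. The antisense gene Gm12454, which shares 214 of the 2304 exon bases of Car9, had 463 and 461 reads, nearly the counts of Car9 itself. The source of the reads on these shared bases is uncertain, and their number was not measured. Among its paralogues, Car12 was at -0.28 and Car14 at -0.10.

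Beyond these genes, a list of 42 non-glycolytic hypoxia targets, also drawn up with earlier results of these data known, was read, of which 38 were found. They had a median log2 fold change of -0.23, and 31 of the 38 lay below the median of all genes. Without the 8 targets chosen by name at the outset, 30 remained, with a median of -0.19 and 24 below the median of all genes. At 1.5-fold, 3 of the 38 were lower and 3 were higher, where 2.01% and 3.56% of all genes were. With TMM scaling 4 were lower and 2 were higher, and with 1 RPKM added 3 were lower and 1 was higher. The lower ones were Ankrd37, Bnip3 and Higd1a. Higd1a, which encodes a mitochondrial inner membrane protein tied to the respiratory chain, had 8.88 RPKM with AS and 16.9 RPKM with the vehicle, for a log2 fold change of -0.93. The higher ones were Stc2, Vldlr and Vegfa. Vegfa, the angiogenic growth factor gene, had 55.5 RPKM with AS and 36.7 RPKM with the vehicle, for a log2 fold change of 0.59, just over the line, and stood at 0.52 with TMM scaling. Vldlr, a lipoprotein receptor gene, was low, with 0.765 and 0.369 RPKM and a log2 fold change of 0.88. This value depended on the RPKM added, at 0.37 with 1 RPKM, under 1.5-fold, and at 1.03 with 0.01 RPKM. Stc2, which encodes a secreted glycoprotein, had 2.32 RPKM with AS and 0.856 RPKM with the vehicle. Its log2 fold change of 1.34 was past 2-fold, but with 1 RPKM added it was 0.84 and no gene of the list was higher by 2-fold. With 0.01 RPKM added, Stc2 and Vldlr both passed 2-fold. Vegfa and Stc2 are also known as genes of the ATF4 stress response. Ddit4, counted with Stc2 among the growth and stress genes of the list, was at -0.32 (counting interval from -0.39 to -0.26). The part of the ATF4 response in these values was not tested.

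**Figure D5:**
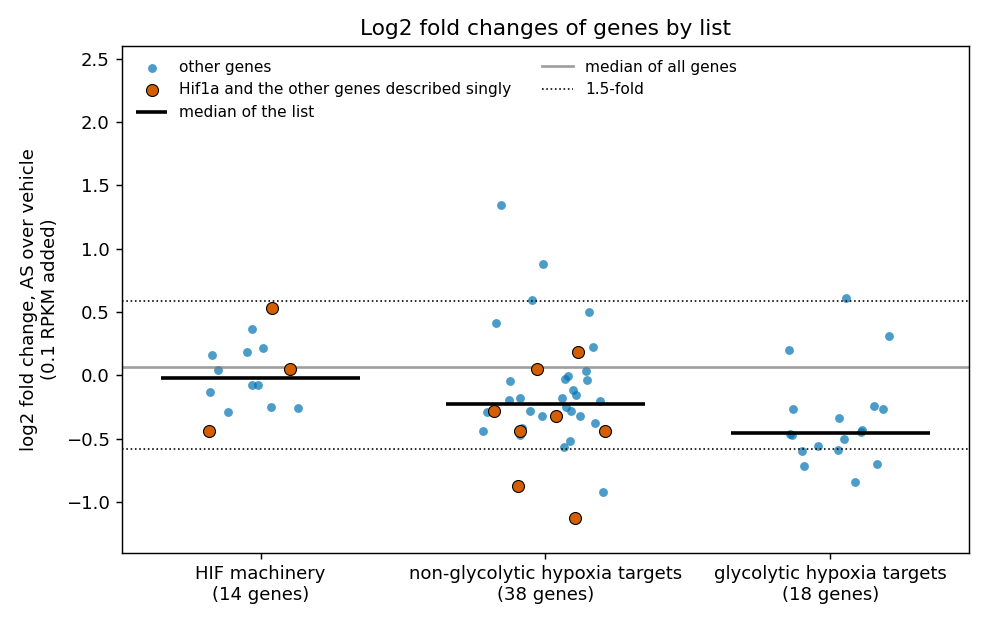
Log2 fold change of AS over vehicle for each gene of 3 lists (points), with the median of each list (black bar), the median of all genes (grey line) and the 1.5-fold lines (dotted); larger orange points are Hif1a and the other genes described singly. The medians are -0.02 for the HIF machinery, -0.23 for the non-glycolytic and -0.46 for the glycolytic hypoxia targets. Egln1, Egln3 and Cited2 are in both the HIF machinery and the non-glycolytic list and are drawn in each.

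By role, the genes of this list were counted below and above 0 with the deposited scaling. Beside a share of 39.1% of all genes below 0 (50.4% with TMM scaling), all 3 genes of mitophagy and cell death were below 0, with a median of -0.57, as were 5 of 6 collagen-modifying genes and 7 of 8 genes of growth and stress. Of 5 vascular genes 4 were below 0, with Vegfa as the exception. Of 3 genes of acid and ion handling 2 were below 0, as were both genes of RNA and transcription. Genes of metabolism other than glycolysis were split evenly, with 2 of 4 below 0, and so were those of oxygen sensing and iron, with 1 of 2 each. The split of oxygen sensing rests on Egln3, which turned to -0.02 with TMM scaling. Of the 38 genes, 29 were below 0 with the deposited scaling and 31 with TMM scaling. The histone demethylase genes Kdm3a, Kdm4b and Kdm4c were at -0.37, -0.29 and 0.04. Kdm4c also turns below 0 with TMM scaling, which lowers every value by 0.07. The iron genes Tfrc and Hmox1 were at -0.01 and 0.41, and Hmox1 is also a well-known NRF2 target.

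Glycolytic hypoxia targets were read for comparison only. Their median over 18 genes was -0.46. Of the 14 enzyme genes 13 were below 0, where 39.1% of all genes were (50.4% with TMM scaling). The exception was Hk2, at 0.31 with a counting interval from 0.27 to 0.36. Ldha, which makes lactate, was at -0.84, followed by Tpi1 (-0.72), Aldoc (-0.70), Pgam1 (-0.60) and Pfkl (-0.59). Pfkfb3, whose enzyme makes an activator of glycolysis, was at 0.61 and at 0.54, under 1.5-fold, with TMM scaling. At 1.5-fold, 5 of the 18 were lower and 1 was higher (2.01% and 3.56% of all genes), and with TMM scaling 6 were lower and 0 were higher. None of the 18 passed 2-fold, as 0.31% of all genes did on the lower and 0.662% on the higher side, so this count is near the background. The differences between the list medians were not tested, since genes are not replicates of the treatment.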

How the data were processed

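Total RNA of 4T1 cells was made into 1 stranded mRNA library per condition. The submitters' processing notes name fastp 0.23.4, STAR 2.5.3a and featureCounts, and they give GRCh38, a human build, although the symbols are those of mouse genes. The table that the authors deposited lists 14197 genes, with 1 RPKM value per library and a mean log2 CPM over both. The unit RPKM is not named in the file and was found from the values. The authors' own fold change, p-value and FDR columns were not used. The strand setting, the annotation and the filter on low genes are not given in the sources used here.

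Reads were recovered as the RPKM times exon length times library size. Library sizes of 44909683 for AS and 50820728 for the vehicle made the reads whole within 0.0001 for all genes. Of 13502 genes with a single entry in GENCODE M21 (GRCm38), 94.2% had the exon length given there, among them all 9 genes described singly, so coordinates are from that annotation. For other genes the length was searched near the value that the mean log2 CPM implies. The recovery was tested on simulated data.

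The alternatives tried were 0.01 or 1 RPKM added in place of 0.1, TMM or upper-quartile scaling of the reads, centring on the median of all genes, and a minimum mean of 1 RPKM. No test was run, since 1 library per condition gives no replicate error. PCR reads without molecular identifiers are not independent molecules, so intervals cover counting error only. Level intervals are exact Poisson intervals, and those of a difference between 2 genes are exact conditional intervals of the odds ratio, from SciPy 1.17.1 in Python 3.11.15. The genes and lists were chosen with earlier results of these data known. Named are the 10 genes, their listed paralogues, the HIF machinery and target genes past 1.5-fold, and any other gene was named after its values were seen.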

Additional observations from a re-analysis of the deposited data

How the results depend on the processing

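The direction of 8 of the 9 genes was the same under all 6 alternatives, and that of Egln3 turned with TMM scaling (-0.02), upper-quartile scaling (-0.03) and centring (-0.02). With 1 RPKM added, 0 genes were lower by 2-fold, since Ankrd37 then stood at -0.99, and its values ranged from -1.21 to -0.99. Low genes also moved with 1 RPKM added, Stc2 from 1.34 to 0.84, Vldlr from 0.88 to 0.37 and Pfkfb3 from 0.61 to 0.43, and Vldlr is left out by the minimum of 1 RPKM. The values of Bnip3 ranged from -0.95 to -0.85 and those of Hif1a from 0.45 to 0.53. The median log2 fold change of the 9 genes was -0.39 with TMM scaling, -0.40 with upper-quartile scaling and -0.39 with centring, and that of the glycolytic targets was -0.52, -0.54 and -0.52. These scalings lower all values alike, by 0.07 to 0.08. The medians of the other lists moved too, for the HIF machinery from -0.02 to -0.10 and for the non-glycolytic targets from -0.23 to -0.31 with upper-quartile scaling. Of the 14 HIF machinery genes, 7 were below 0 with the deposited scaling and 9 with upper-quartile scaling. These moves were smaller than the median half-width of the counting intervals of single genes in each list, which is not an interval of the list median. No paired analysis was possible because each condition has 1 library. Depth limits Adm and Car9, whose counting intervals include 0, and spread between dishes was not measured for any gene.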

Other observations

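The receptor side of adrenomedullin signalling was read beside Adm, after the list fixed for it. Of the receptor gene Calcrl and the genes of its partner proteins, Ramp1 and Ramp2 were found, and Calcrl and Ramp3 are not analysed here. Ramp2 had 8.74 RPKM with AS and 8.92 RPKM with the vehicle (log2 fold change -0.03). Ramp1 had 1.28 RPKM with AS and 1.56 RPKM with the vehicle (log2 fold change -0.26), with a counting interval from -0.57 to 0.0083.

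Log2 fold changes of genes on the opposite strand lay close to those of their partners for Hif1a, Bnip3, Ndrg1 and Car9, but not for Ankrd37. Gm15283 was at 0.64 beside Hif1a at 0.53, Gm45507 at -1.03 beside Bnip3 at -0.87, Gm17035 at -0.34 beside Ndrg1 at -0.33, and Gm12454 at 0.18 beside Car9 at 0.18. Gm2895, which also lies opposite Ndrg1, was at -0.21, and Lrp2bp and Ufsp2 were at -0.41 and -0.38 beside Ankrd37 at -1.13. The shared exon bases ran from 57 for Ufsp2 to 504 for Gm45507, so the contrast with Ankrd37 sets unlike pairs side by side. The overlap was measured against the exons of the described genes only, not against those of their partners. The opposite-strand genes were named after the overlap with the exons was found, and whether reads are shared between the strands was not tested.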
